A study of Arabidopsis thaliana with 12 samples.

Results

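The genes described here are the Aux/IAA family of Arabidopsis thaliana, IAA1 to IAA20 and IAA26 to IAA34, together with 7 GH3 genes, GH3.1 to GH3.6 and GH3.17. They were chosen by locus, 29 Aux/IAA and 7 GH3 genes, which makes 36 of the 32399 genes in the deposited table. RNA was sequenced from whole seedlings, 5 days old, that had grown at 22 °C in days of 16 h light and 8 h dark and were then held for 12 h at 22 °C or at 29 °C, with collection at zeitgeber time 12 h. The 2 genotypes are wild type (WT), with no accession named in the labels used here, and plants labelled rve5-2, which names an allele of RVE5 (REVEILLE 5), a clock-related Myb gene. The 4 groups, WT and labelled rve5-2 at each temperature, have 3 libraries each, 12 in all.

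Aux/IAA proteins are repressors that bind the auxin response factors (ARFs), the transcription factors that act on auxin-responsive promoters, and recruit TOPLESS-type corepressors. Auxin holds an Aux/IAA protein to the F-box receptors TIR1 and AFB through a short degron in the repressor, which is then ubiquitinated and degraded. Many Aux/IAA and GH3 genes are themselves induced by auxin, so their transcripts are used as a readout of auxin response. GH3 enzymes of the group studied here conjugate auxin to amino acids, which lowers the free hormone. In warm-grown seedlings, auxin made in the cotyledons is known to drive hypocotyl elongation, with IAA19 and IAA29 among the genes used to follow it.

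The degron is the feature that ties an Aux/IAA protein to auxin, so its coding sequence was read for each gene. The search was for 4 codons in a row, in the reading frame, for glycine, tryptophan, proline and proline, the residues at the degron's centre. It was found in 23 of 29 Aux/IAA genes and in 0 of 7 GH3 genes. The 6 Aux/IAA genes without it are IAA20, IAA30, IAA31, IAA32, IAA33 and IAA34. The stretches below, from the RefSeq genome of TAIR10 and each within 1 exon, belong to genes on which the results turn. The capitals mark the 12 matching bases, and the flanks in lower case are coding sequence too.
IAA7 (chr3:8195568-8195606, + strand): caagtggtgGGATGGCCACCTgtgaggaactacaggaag
IAA9 (chr5:26255104-26255142, + strand): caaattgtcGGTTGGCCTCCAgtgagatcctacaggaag
IAA17 (chr1:1136938-1136976, + strand): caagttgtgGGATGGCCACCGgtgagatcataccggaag
IAA28 (chr5:9033812-9033850, + strand): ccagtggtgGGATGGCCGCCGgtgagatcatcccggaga
IAA29 (chr4:15583942-15583980, + strand): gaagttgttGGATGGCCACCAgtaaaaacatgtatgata
IAA19 (chr3:5264307-5264345, + strand): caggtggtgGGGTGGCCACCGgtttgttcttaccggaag
The 12 bases of IAA7 are the same as those of IAA6, and those of IAA29 the same as in IAA3, IAA4, IAA11, IAA12 and IAA27.

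Upstream sequence was read for the same reason, as the 300 bases before the start of each gene. That start was the outermost of the one in RefSeq and the one in the deposited table. Where both together spanned far more than the gene in the deposited table, the start in that table was used. Both strands were searched for the auxin response elements TGTCTC and TGTCGG, for the G-box CACGTG, which PIF-type factors bind, and for the evening element AAATATCT of clock genes. TGTCTC stood in 14 of the 34 genes tested below (41.2%) and in 12.9% of the 21869 windows of all tested genes with a sequence. For TGTCGG the numbers were 6 of 34 (17.6%) and 5.35%, and for CACGTG 5 of 34 (14.7%) and 7.85%. The evening element stood upstream of GH3.2 alone (2.94%, against 5.78% of all windows). IAA7 and IAA19 are printed because both hold a G-box while only IAA19 holds auxin elements. IAA7 also passed the warm test described below and IAA19 did not, so the pair was chosen with its outcome known. IAA20, IAA30 and GH3.2 hold both a G-box and TGTCTC. Of these only IAA30 was called for warmth, over both genotypes, so the pair shows no rule. The capitals mark the matches.
IAA7 (chr3:8194306-8194605, + strand): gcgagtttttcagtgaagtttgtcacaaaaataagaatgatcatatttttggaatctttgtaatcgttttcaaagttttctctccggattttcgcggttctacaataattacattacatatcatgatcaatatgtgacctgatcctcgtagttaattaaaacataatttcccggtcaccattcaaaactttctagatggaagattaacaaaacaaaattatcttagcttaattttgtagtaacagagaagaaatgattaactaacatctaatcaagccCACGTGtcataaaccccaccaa
IAA19 (chr3:5263701-5264000, + strand): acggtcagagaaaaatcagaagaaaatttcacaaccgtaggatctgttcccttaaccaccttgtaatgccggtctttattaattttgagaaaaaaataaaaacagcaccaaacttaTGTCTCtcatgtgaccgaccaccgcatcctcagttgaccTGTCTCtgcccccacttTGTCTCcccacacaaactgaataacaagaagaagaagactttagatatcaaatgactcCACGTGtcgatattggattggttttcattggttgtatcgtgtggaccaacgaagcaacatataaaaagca
Counted from that outermost start, the base after the window, the G-box begins 22 bases before the start of IAA7 and 70 bases before that of IAA19. The 3 TGTCTC elements of IAA19 begin 184, 145 and 128 bases before its start. A match describes the letters in the window and is not a shown binding site. The windows of IAA9, IAA17, IAA28, IAA29 and GH3.17 held none of the 4 motifs.

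Library depth was 65.9 to 89.1 M counts (M, 1e6). Low counts pile up at multiples of 3.74, which would put the depth at about 17.6 to 23.8 M fragments. The gene named by the allele goes against the label: RVE5 stood at 14.9 ± 0.757 CPM (counts per 1e6 counts after scaling) in WT at 22 °C and at 1011 ± 68.1 CPM in those labelled rve5-2 (SD over 3 libraries each). At 29 °C the levels were 15.1 ± 1.66 and 1329 ± 85.6 CPM. No direction is therefore drawn from the allele name, and the group is called by its label throughout. The 8 green shoot markers had counts in every library, as seedlings should, and so did all 16 root and root hair markers at 22 °C. The root markers were far lower at 29 °C, in both genotypes. Their summed level was 77.6 to 169 CPM in WT at 22 °C against 13.6 to 35.4 CPM at 29 °C, and 113 to 152 against 17.2 to 33.4 CPM in the libraries labelled rve5-2. In each warm group 14 of 16 root markers still had counts in every library. The others were the root cap gene BRN1 in both groups, the root hair expansin EXPA18 in WT and the root cap gene SMB in the libraries labelled rve5-2, each at 0 in some library. WT replicate 1 at 29 °C had the lowest root score of all 12 (-1.21), which averages the markers' log2 CPM.

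At the level of single genes the family spanned a wide range. Levels between genes are compared in FPKM (fragments per kilobase and 1e6 fragments), as deposited. IAA9 had the highest mean over the 12 libraries, 159 FPKM, which is 21.4% of the summed level of all 36 genes. IAA8 (110 FPKM), IAA16 (101 FPKM) and IAA7 (83.6 FPKM) followed, and these 4 genes made up 60.9% of the sum. GH3.17, which couples auxin to glutamate, was the highest GH3 gene, at 10.5 FPKM. IAA19 stood at 4.20 FPKM and IAA29 at 1.25 FPKM. In all, 14 genes had a mean over 10 FPKM and 10 had a mean under 1 FPKM. The 6 Aux/IAA genes without the degron match were all low, at 0.382 to 2.37 FPKM. GH3.4 had a count of 0 in every library. IAA15 had no count in any of the 6 libraries at 22 °C and reached 0.265 CPM in 1 WT library and 0.297 and 0.109 CPM in 2 libraries labelled rve5-2 at 29 °C. A count of 0 allows up to 0.0447 to 0.0526 CPM per group, at 3 fragments over the group. GH3.4 and IAA15 did not pass the filter on low counts, which leaves 34 genes tested. The summed level of the 36 genes was 786 ± 20.4 FPKM in WT at 22 °C and 705 ± 61.5 FPKM at 29 °C. In the libraries labelled rve5-2 it was 781 ± 5.64 and 706 ± 45.1 FPKM (SD, n = 3 each).

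**Figure D1:**
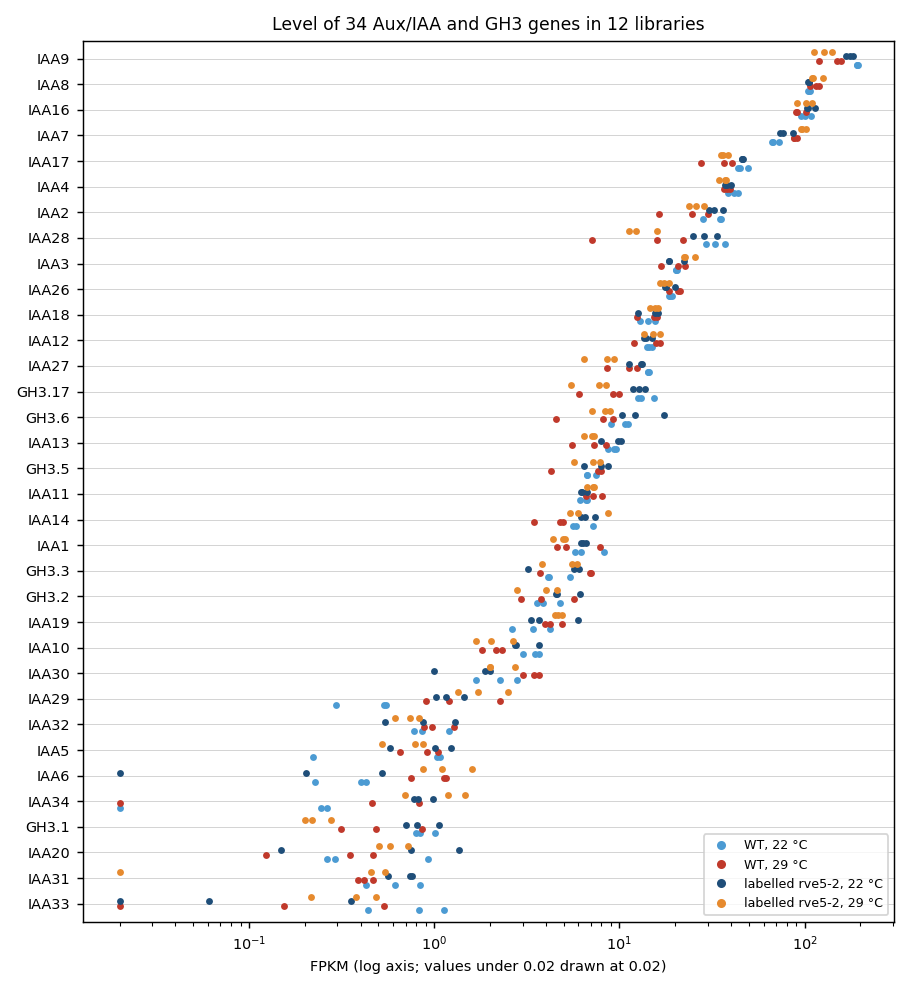
FPKM on a log axis of the 34 tested genes, ordered by mean level, with 1 point per library and colours for the 4 groups; values under 0.02 are drawn at 0.02. IAA9, IAA8, IAA16 and IAA7 lie at the top in every library, and IAA29 and IAA19 lie far below them.

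The first comparison asks how these genes respond to 12 h of warmth in WT. IAA7 and IAA29 rose at 29 °C, and IAA9, IAA17, IAA28 and GH3.17 fell. IAA7 (also AXR2, a repressor named for an auxin-resistant mutant) and IAA9 changed by under 1.5-fold but are among the most abundant of the family. IAA28, known as a repressor of lateral root formation, fell more than 2-fold, and IAA29 rose 3.2-fold from a low level. IAA19, the other marker of warm auxin response named above, did not pass the test. Of the 34 genes tested, 2 were called higher and 4 lower at an adjusted p under 0.05 (17.6%), beside 15.5% of all genes tested (8.08% higher and 7.41% lower). In the same comparison 11 of the 34 had an unadjusted p under 0.05, beside 31.4% of all genes tested. The median log2 fold change of the 34 was -0.05, beside 0.00 for all genes tested. The family's share of calls was thus close to the background.

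IAA7 (AT3G23050, chromosome 3, 8194679 to 8197153) was at 105, 99.4 and 113 CPM in the WT libraries at 22 °C and at 149, 134 and 139 CPM at 29 °C. All 3 warm libraries lay above all 3 cool ones, and the log2 fold change was 0.41 (SE 0.08, adjusted p = 0.0056). IAA29 (AT4G32280, chromosome 4, 15583387 to 15584769) was at 0.528, 0.288 and 0.545 CPM at 22 °C and at 0.975, 1.17 and 2.21 CPM at 29 °C. The groups did not overlap, although the 3 warm libraries spread widely. Its log2 fold change was 1.68 (SE 0.43, adjusted p = 0.0209).

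IAA28 (AT5G25890, chromosome 5, 9033415 to 9034834) was at 25.7, 27.4 and 32.3 CPM at 22 °C and at 6.69, 13.6 and 18.9 CPM at 29 °C. Every warm library was lower than every cool one, with replicate 1 the lowest, and the log2 fold change was -1.12 (SE 0.28, adjusted p = 0.0182). GH3.17 (AT1G28130, chromosome 1, 9825286 to 9828067) was at 28.8, 32.4 and 27.5 CPM at 22 °C and at 14.5, 21.5 and 20.1 CPM at 29 °C. It fell 1.58-fold without overlap between the groups (log2 fold change -0.66, SE 0.16, adjusted p = 0.0176). IAA9 (AT5G65670, chromosome 5, 26253658 to 26256468), a close relative of IAA8 and IAA27, was at 310, 298 and 311 CPM at 22 °C and at 211, 239 and 252 CPM at 29 °C. Its fall of 1.31-fold was also without overlap (log2 fold change -0.39, SE 0.08, adjusted p = 0.00875). IAA17 (AT1G04250, chromosome 1, 1136258 to 1138613, listed as AXR3), whose stabilised form is known for strong auxin resistance, was at 47.3, 46.7 and 53.7 CPM at 22 °C and at 32.4, 43.5 and 38.9 CPM at 29 °C. The log2 fold change was -0.36 (SE 0.10, adjusted p = 0.025).

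IAA19 was at 2.56, 3.93 and 3.29 CPM at 22 °C and at 4.16, 4.66 and 4.01 CPM at 29 °C in WT. The warm libraries lay above the cool ones, but the difference did not pass the test (0.39 on the log2 scale, SE 0.23, adjusted p = 0.273). GH3.3, an auxin-conjugating enzyme with roles in adventitious rooting, overlapped between the groups, at 8.43 to 11.5 CPM and 8.52 to 14.5 CPM. It did not pass either, at 0.39 on the log2 scale (SE 0.26, adjusted p = 0.334). In all, 15 of the 34 genes had no overlap between the warm and cool WT libraries, 44.1%, beside 36.3% of all genes tested. With the WT libraries alone, the calls of IAA17, IAA28 and IAA29 were lost (edgeR adjusted p = 0.101, 0.0731 and 0.0805). The calls of IAA29, IAA17, IAA28 and GH3.17 each ended when 1 particular library was left out. For IAA29 this was WT replicate 2 at 22 °C or replicate 3 at 29 °C, for GH3.17 replicate 2 at 22 °C, for IAA28 replicate 3 at 22 °C, and for IAA17 replicate 3 at 22 °C or replicate 1 at 29 °C.

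In the libraries labelled rve5-2, IAA3, IAA7 and IAA8 rose at 29 °C, and IAA9, IAA27, IAA28, GH3.1 and GH3.17 fell. GH3.1 had the largest log2 fold change of these. IAA7, IAA9, IAA28 and GH3.17 were thus called in both genotypes, and each moved the same way in both. They are 66.7% of the calls in WT and 50% of those here. The same overlap over all genes was not counted, so these shares have no background beside them. Of the 34 genes, 3 were called higher and 5 lower (23.5%), beside 26% of all genes tested (13% in each direction). Groups without overlap were found for 14 of the 34 (41.2%), beside 45.6% of all genes tested. The unadjusted p was under 0.05 in 12 of the 34, beside 38.7% of all genes tested.

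IAA7 was at 122, 136 and 114 CPM at 22 °C and at 166, 165 and 169 CPM at 29 °C in these libraries. The rise was 1.34-fold without overlap (log2 fold change 0.43, SE 0.08, adjusted p = 0.00225), close in size to that in WT. IAA3 (chromosome 1, 1128188 to 1129551, listed as SHY2), a repressor known from root meristem and light studies, was at 22.4, 26.6 and 21.8 CPM at 22 °C and at 29.2, 28.8 and 32.2 CPM at 29 °C. The groups did not overlap, and the log2 fold change was 0.35 (SE 0.10, adjusted p = 0.0192). In WT, IAA3 stood at 22.7 to 23.8 and 21.4 to 26.1 CPM, with a log2 fold change of 0.03 (SE 0.10, adjusted p = 0.882). IAA8 (chromosome 2, 9636380 to 9638745) was at 173 to 175 CPM at 22 °C and at 193 to 217 CPM at 29 °C, a log2 fold change of 0.23 (SE 0.08, adjusted p = 0.0446) that lay just inside the threshold.

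GH3.1 (AT2G14960, chromosome 2, 6451372 to 6453670), an auxin-inducible GH3 gene, was at 1.70, 1.49 and 2.19 CPM at 22 °C and at 0.633, 0.497 and 0.450 CPM at 29 °C. It fell 3.39-fold without overlap (log2 fold change -1.76, SE 0.38, adjusted p = 0.00586). In WT the same gene was at 1.65 to 2.01 CPM and 0.701 to 1.75 CPM, with overlap, and the log2 fold change of -0.65 did not pass the test (SE 0.36, adjusted p = 0.25). IAA27 (chromosome 4, 14323361 to 14325328, listed as PAP2, phytochrome-associated protein) was at 18.1, 17.6 and 15.1 CPM at 22 °C and at 9.49, 12.4 and 13.3 CPM at 29 °C. Its log2 fold change was -0.53 (SE 0.14, adjusted p = 0.0147), and in WT it was -0.38 (SE 0.14, adjusted p = 0.078).

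IAA28 was at 25.4, 21.9 and 29.3 CPM at 22 °C and at 10.9, 11.6 and 14.7 CPM at 29 °C, a 2.06-fold fall (log2 fold change -1.04, SE 0.28, adjusted p = 0.0165). GH3.17 was at 31.0, 28.5 and 26.2 CPM and then at 13.4, 18.6 and 20 CPM (log2 fold change -0.72, SE 0.16, adjusted p = 0.00747). IAA9 was at 279, 290 and 295 CPM and then at 202, 224 and 243 CPM (log2 fold change -0.37, SE 0.08, adjusted p = 0.00696). None of these 3 genes had any overlap between the temperatures. IAA29 overlapped, at 1.02 to 1.44 CPM and 1.43 to 2.75 CPM, and its log2 fold change of 0.73 did not pass the test (SE 0.41, adjusted p = 0.215). Neither did that of IAA19 (0.21, SE 0.23, adjusted p = 0.549) or GH3.3 (0.13, SE 0.26, adjusted p = 0.758). The calls of IAA3, IAA27 and IAA28 each ended without 1 of several libraries. These were replicates 1 and 3 at 22 °C and replicate 3 at 29 °C for IAA3, replicate 1 at either temperature for IAA27, and replicate 3 at 22 °C and replicates 1 and 2 at 29 °C for IAA28. The call of IAA3 was also lost in both limma fits on log2 FPKM (limma adjusted p = 0.111 and 0.112). The call of IAA8 ended in 10 of 14 alternatives.

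**Figure D2:**
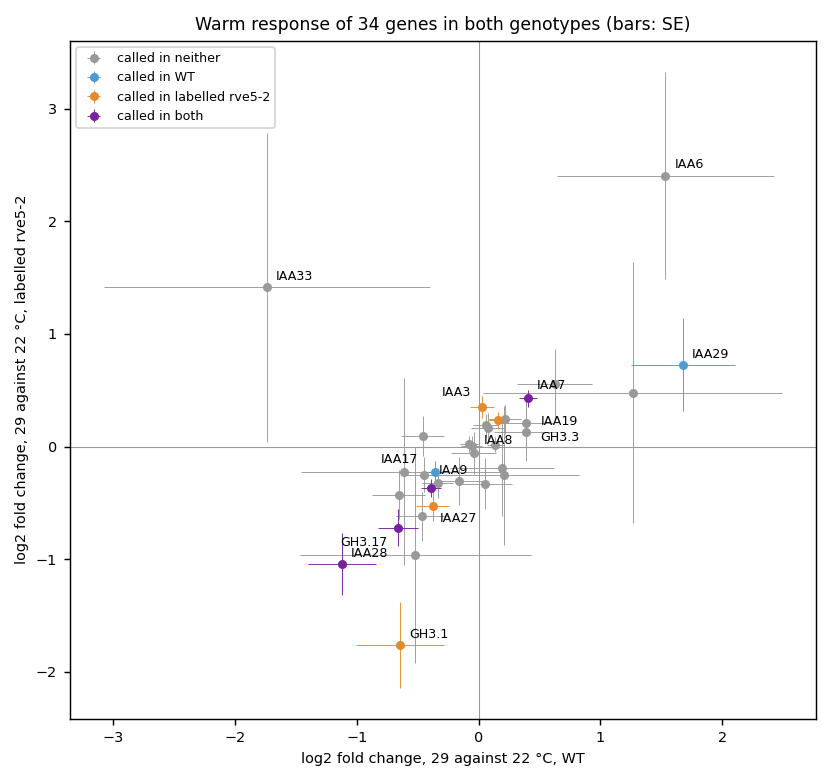
Log2 fold change from 22 to 29 °C of the 34 tested genes in WT (x axis) and in the libraries labelled rve5-2 (y axis), with SE bars and colours for the calls. IAA7 lies upper right and IAA9, IAA28 and GH3.17 lower left, called in both; IAA6 and IAA33 have wide bars.

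Averaging the warm responses of both genotypes, a contrast added after the data were seen, used all 12 libraries and called 16 of the 34 genes (47.1%), beside 38.6% of all genes tested (19.1% higher and 19.5% lower). The 6 that rose were IAA3, IAA6, IAA7, IAA8, IAA29 and IAA30, and the 10 that fell were IAA2, IAA9, IAA10, IAA13, IAA17, IAA27, IAA28, GH3.1, GH3.6 and GH3.17. An unadjusted p under 0.05 was reached by 17 of the 34, beside 47.5% of all genes tested. All 10 genes called in either genotype were called here as well. Of the 16 calls 0 held in every alternative, since the fit with the root score as a covariate ended each of them. Counting that fit among 19 alternatives, the call of IAA3 was lost in 15, that of IAA30 in 12 and that of IAA6 in 6. The call of IAA2 was lost in 5, with its sign reversed in 1 more, and that of IAA8 was lost in 2. The 3 GH3 genes that changed were therefore all lower in warmth, while the Aux/IAA genes divided into 6 higher and 7 lower. Among Aux/IAA genes with the degron match 12 of 22 tested were called, and among those without it 1 of 6 was called, IAA30. The 2 sets also differ in level, with medians of 14.6 FPKM (n = 23) and 0.593 FPKM (n = 6). The part of level in these counts of calls was not tested. TGTCTC stood upstream of 4 of the 6 genes that rose, 1 of the 10 that fell and 9 of the 18 not called. CACGTG stood upstream of 2, 0 and 3 of them. The 4 that rose with TGTCTC were IAA3, IAA6, IAA8 and IAA30, all named above for lost calls. IAA7 and IAA29, whose calls ended only with the root score as a covariate, held no TGTCTC. A link between motif and warm response was not tested.

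IAA7 ranged from 99.4 to 136 CPM, with a median of 114, in the 6 cool libraries and from 134 to 169 CPM, with a median of 157, in the 6 warm ones. The ranges overlapped slightly, WT being the lower genotype at both temperatures. The log2 fold change was 0.42 (SE 0.05, adjusted p = 0.000137). IAA6, a close relative of IAA19, ranged from 0 to 0.439 CPM (median 0.266) at 22 °C and from 0.612 to 1.42 CPM (median 0.983) at 29 °C. It did not overlap between temperatures, and its log2 fold change was 1.97 (SE 0.64, adjusted p = 0.0287). Within the genotypes IAA6 did not pass the test (adjusted p = 0.264 in WT and 0.074 in the libraries labelled rve5-2). IAA29 ranged from 0.288 to 1.44 CPM (median 0.782) and from 0.975 to 2.75 CPM (median 1.64), with a log2 fold change of 1.20 (SE 0.30, adjusted p = 0.00717). IAA30 ranged from 0.761 to 2.03 CPM and from 1.57 to 2.63 CPM, with a log2 fold change of 0.59 (SE 0.22) and an adjusted p of 0.049.

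IAA28 ranged from 21.9 to 32.3 CPM (median 26.5) at 22 °C and from 6.69 to 18.9 CPM (median 12.6) at 29 °C, with a log2 fold change of -1.08 (SE 0.20, adjusted p = 0.00112). GH3.17 ranged from 26.2 to 32.4 CPM (median 28.6) and from 13.4 to 21.5 CPM (median 19.3), with a log2 fold change of -0.69 (SE 0.11, adjusted p = 0.000645). GH3.6 (listed as DFL1, an auxin-conjugating enzyme whose excess gives dwarf plants) ranged from 19.4 to 38.6 CPM (median 23.3) and from 10.8 to 20.6 CPM (median 18.5). Its log2 fold change was -0.54 (SE 0.15, adjusted p = 0.0146). IAA2, IAA10 and IAA13 fell by 0.35, 0.54 and 0.33 on the log2 scale. IAA6, IAA9, IAA17, IAA28 and GH3.17 were the 5 genes without overlap over all 12 libraries, 14.7%, beside 18.9% of all genes tested. IAA19 (log2 fold change 0.30, SE 0.16, adjusted p = 0.168) and GH3.3 (0.26, SE 0.18, adjusted p = 0.288) were not called.

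**Figure D3:**
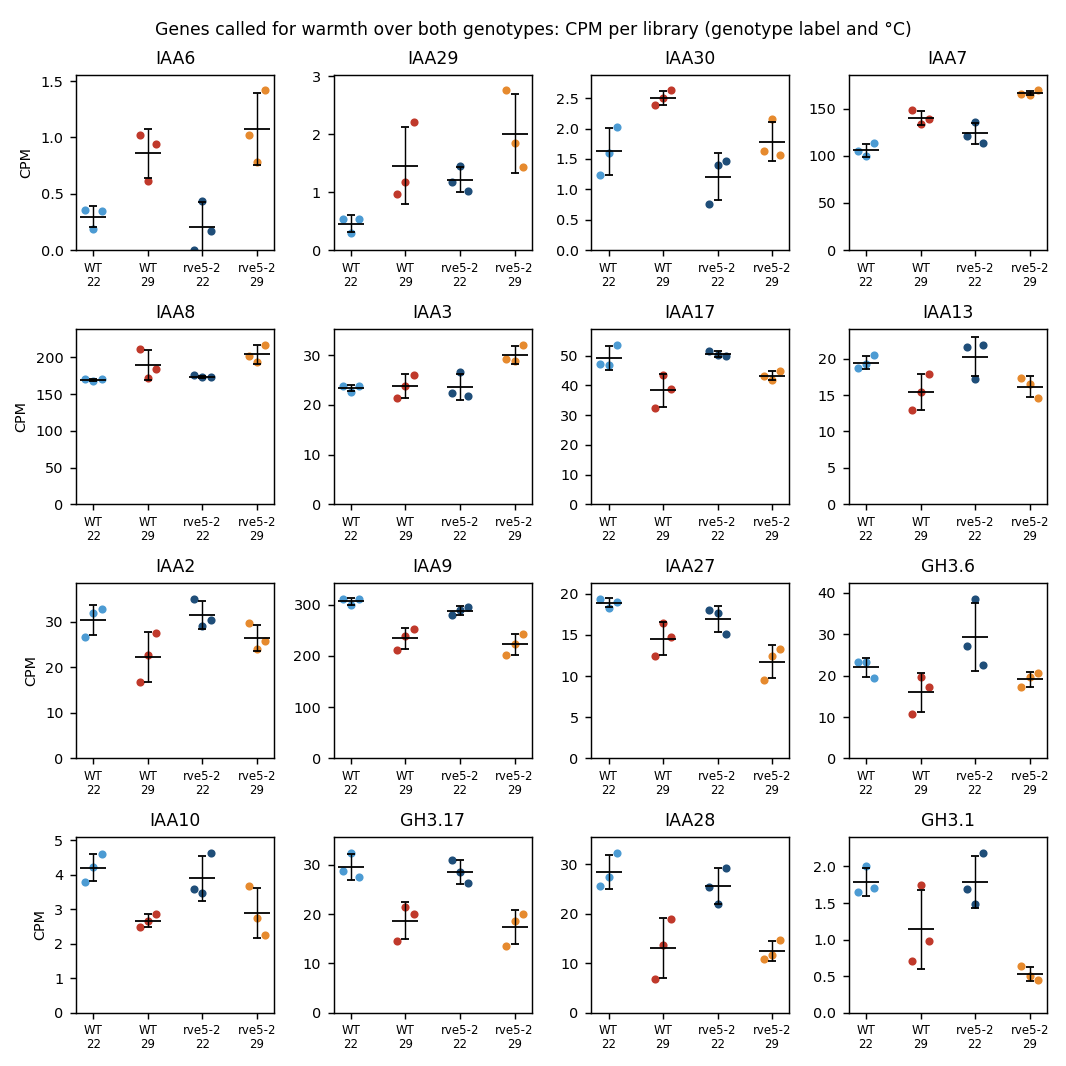
CPM per library of the 16 genes called over both genotypes, each panel with its own axis from 0, in the order of their log2 fold change; points are libraries, and the bars show the mean and SD (n = 3). IAA7 is above its cool level in every warm library of its genotype, and IAA28 and GH3.17 are below theirs.

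The root markers were lower at 29 °C, as were the 10 genes above that fell. At 29 °C, 10 of 16 root markers were called lower in WT and 9 of 16 in the libraries labelled rve5-2, and the fitted value was lower for 16 of 16 in WT and for 15 of 16 in the libraries labelled rve5-2. Within groups the order of libraries was mixed. WT replicate 1 at 29 °C, with the lowest root score, was the lowest of its group in all 10 of those genes. How often this held over all genes was not counted. That library also had the highest green shoot marker sum of its group (66436 CPM, against 48272 and 49732 CPM). It had the fewest genes detected of all 12 libraries (21429). In the libraries labelled rve5-2 at 29 °C the lowest score was that of replicate 2 (-0.829), which was the lowest of its group in 2 of the 10, IAA2 and IAA17. At 22 °C the library with the lowest score of its group was the lowest in 3 of the 10 in WT and in 5 of the 10 in the libraries labelled rve5-2. GH3.17 in WT at 22 °C was highest, at 32.4 CPM, in the library with the lowest score of that group (replicate 2, 1.89). IAA14, the repressor SLR of lateral root initiation, was lowest in WT replicate 1 at 29 °C, at 5.54 CPM. In whole seedlings, fewer cells of a type and less RNA per cell cannot be told apart. With the root score as a covariate, 0 of the 34 genes were called for warmth in WT, in the libraries labelled rve5-2 or over both. The SE of the warm response was then 1.68, 1.75 and 2.22 times as large at the median, since the score itself differs by temperature. At the median the called genes kept 0.452, 0.522 and 0.492 of the size of their fold change. IAA28 went from -1.12 to -0.04 in WT (adjusted p = 0.974) and from -1.04 to 0.25 in the libraries labelled rve5-2 (adjusted p = 0.744). GH3.17 kept its sign, at -0.33 (adjusted p = 0.692) and -0.34 (adjusted p = 0.625). Over all genes, 51, 133 and 141 were called in these 3 comparisons.

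**Figure D4:**
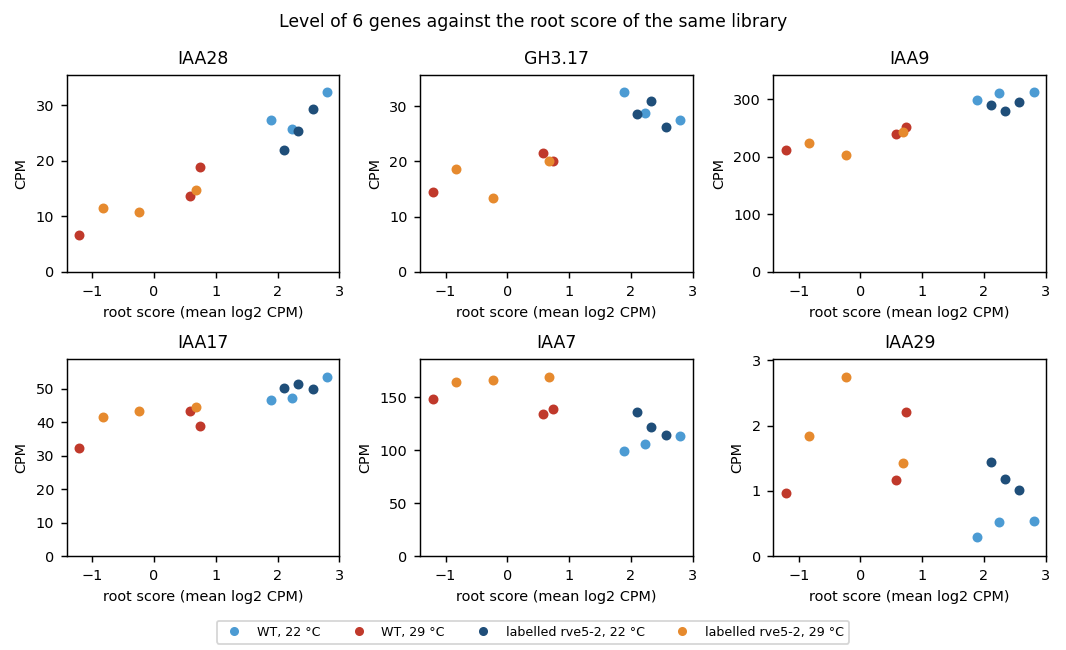
CPM of 6 genes against the root score of the same library (mean log2 CPM of 16 root markers), 1 point per library, colours for the 4 groups. IAA28 is lowest in WT replicate 1 at 29 °C, at a root score of -1.21, and the warm libraries lie left of the cool ones in every panel.

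The genotypes were compared at each temperature, that is, libraries with high RVE5 counts against WT. The summed level of the green shoot markers was 49458 to 53805 CPM in WT at 22 °C, where the libraries labelled rve5-2 had 56207 to 60195 CPM. At 29 °C it was 48272 to 66436 and 59345 to 69085 CPM. Its part in the genotype differences was not tested. None of the 34 genes was called by edgeR at 22 °C or at 29 °C, beside 0.192% and 0.466% of all genes tested. By direction, 0.137% of all genes were called higher and 0.0549% lower at 22 °C, and 0.32% and 0.146% at 29 °C. An unadjusted p under 0.05 was reached by 2 of the 34 at 22 °C and by 6 at 29 °C, beside 6.39% and 8.4% of all genes tested. DESeq2 called 0 and 1 of the 34, the latter being IAA14, beside 143 (0.654%) and 345 (1.58%) of all genes with an adjusted p. IAA14 was at 5.54, 7 and 7.25 CPM in WT and at 8.89, 9.57 and 13.8 CPM in the libraries labelled rve5-2 at 29 °C. The groups did not overlap, and the log2 fold change was 0.70 (SE 0.18, adjusted p = 0.176) by edgeR and 0.71 (adjusted p = 0.0284) by DESeq2. IAA29 at 22 °C was at 0.288 to 0.545 CPM in WT and at 1.02 to 1.44 CPM in the libraries labelled rve5-2, without overlap. Its log2 fold change of 1.42 did not pass the test (SE 0.43, adjusted p = 0.504), and at 29 °C it was 0.47 (SE 0.41, adjusted p = 0.872). IAA19 had log2 fold changes of 0.39 (adjusted p = 0.859) at 22 °C and 0.21 (adjusted p = 0.921) at 29 °C. For GH3.3 they were 0.16 (adjusted p = 0.975) and -0.10 (adjusted p = 0.98), and for GH3.17 -0.05 (adjusted p = 0.995) and -0.11 (adjusted p = 0.949).

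IAA7 was higher than WT in all 3 libraries labelled rve5-2 at each temperature, without overlap. Over both temperatures its log2 fold change was 0.24 (SE 0.05, adjusted p = 0.093), so that it missed the threshold in edgeR, while DESeq2 called it (0.24, adjusted p = 0.00372) among 432 genes in all (1.98%). Without WT replicate 1 at 29 °C edgeR called it as well (0.26, adjusted p = 0.0266). Over both temperatures 0 of the 34 were called by edgeR and 8 had an unadjusted p under 0.05. Of all genes tested, 0.686% were called (0.53% higher and 0.155% lower) and 9.48% had an unadjusted p under 0.05. Groups without overlap were found for 8 of the 34 (23.5%) at 22 °C and 8 at 29 °C, beside 14.4% and 11.6% of all genes tested.

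**Figure D5:**
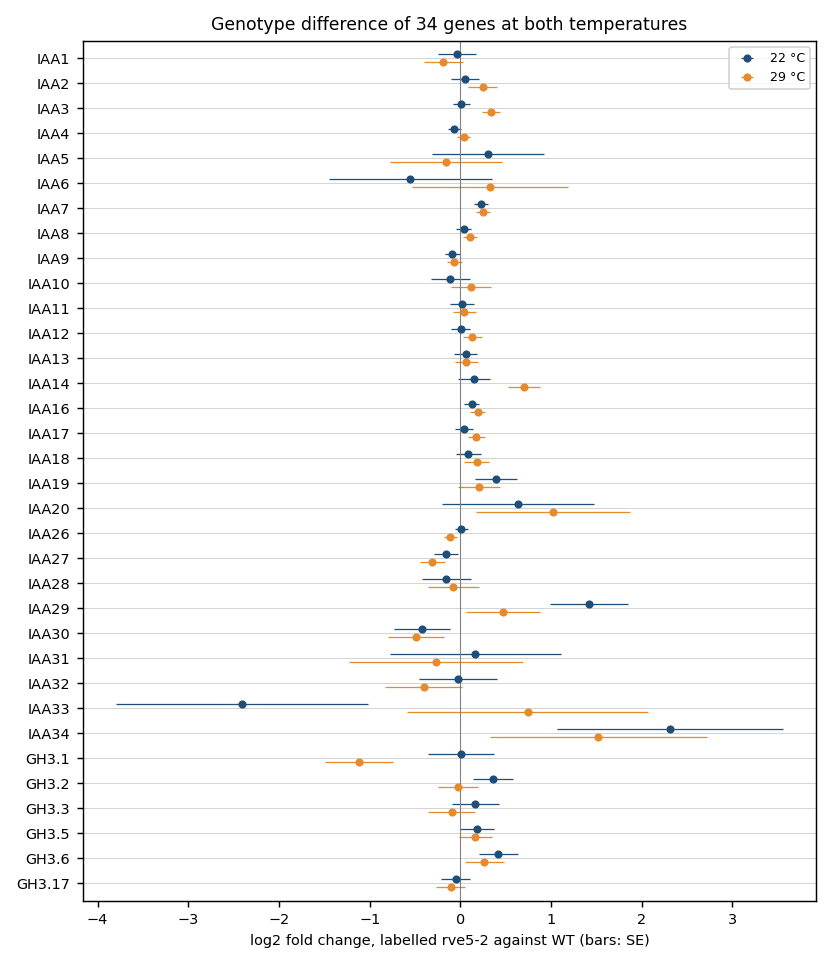
Log2 fold change of the libraries labelled rve5-2 against WT at 22 °C (blue) and 29 °C (orange) for the 34 tested genes, with SE bars. None was called by edgeR; IAA29 at 22 °C (1.42) and IAA14 at 29 °C (0.70) lie right of 0, and the low genes IAA33 and IAA34 have wide bars.

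The interaction asks whether the warm response differs between the genotypes. None of the 34 genes passed, and 0% of all genes did. The unadjusted p was under 0.05 for 2 of the 34, beside 4.89% of all genes tested. DESeq2 also called 0 of the 34, beside 0.197% of all genes. The difference in warm response, labelled rve5-2 minus WT, was -0.95 for IAA29 (SE 0.59, adjusted p = 0.981), -1.12 for GH3.1 (SE 0.52, adjusted p = 0.981) and 0.33 for IAA3 (SE 0.14, adjusted p = 0.981). It was -0.18 for IAA19 (SE 0.33), -0.26 for GH3.3 (SE 0.37) and -0.06 for GH3.17 (SE 0.23). A call in 1 genotype and not in the other, as for IAA3, IAA17, IAA29 and GH3.1, is thus no shown difference between them.

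Other genes of the pathway were taken from lists of receptors, corepressors, ARFs, hormone-inactivating enzymes and further GH3 genes. None of the 6 TIR1 and AFB receptor genes was called in any comparison, and none had an unadjusted p under 0.05. TIR1 itself was at 71.9 ± 3.88 CPM in WT at 22 °C and 72.7 ± 10.3 CPM at 29 °C (SD, n = 3 each). Of the 5 TOPLESS-type corepressors, 1 was lower at 29 °C in WT and 3 in the libraries labelled rve5-2. The one in both was TPR2, which fell by 0.41 (adjusted p = 0.00625) and by 0.46 (adjusted p = 0.00197) on the log2 scale. TPL, the founding corepressor, and TPR3 fell by 0.33 and 0.38 in the libraries labelled rve5-2. Of 15 ARFs, ARF7 (listed as NPH4, an activator in hypocotyl bending) was called lower in WT (-0.26, adjusted p = 0.0446). In the libraries labelled rve5-2, 5 were lower and 1 higher. ARF19, the close partner of ARF7, fell there by 0.69 (adjusted p = 0.00111), ARF7 by 0.30 and ARF6 by 0.40, and ARF11 was higher by 0.51 (adjusted p = 0.0377). Over both genotypes all 5 corepressors were called lower, and 6 ARFs lower and 1 higher, in the contrast that called 38.6% of all genes.

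Among 12 genes of auxin inactivation and release, 10 were tested. The oxidase-family locus AT1G14120 rose by 0.67 in WT (adjusted p = 0.00614) and by 0.86 in the libraries labelled rve5-2 (adjusted p = 0.000829). ILL6, of the family that releases auxin from conjugates, rose by 0.71 and 0.75, and ILL3 of the same family fell by 1.01 in the libraries labelled rve5-2. Of 7 other auxin-induced genes none was called within a genotype. ACS8, an ethylene synthesis gene, was called over both (1.89, adjusted p = 0.0499).

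The one GH3 gene that edgeR called between the genotypes lies outside the 7 described. GH3.10 (listed as DFL2, a GH3 gene of another branch known from hypocotyl growth in light) was at 16.9 ± 1.16 CPM in WT at 22 °C and 25.2 ± 1.48 CPM at 29 °C. In the libraries labelled rve5-2 it was at 26.2 ± 4.03 and 37.7 ± 0.911 CPM (SD, n = 3 each). It rose in warmth in both (0.57, adjusted p = 0.00391, and 0.53, adjusted p = 0.00321). It was also higher in the libraries labelled rve5-2 than in WT at 22 °C (0.63, adjusted p = 0.0267) and at 29 °C (0.58, adjusted p = 0.0238). GH3.9 rose by 0.94 in WT (adjusted p = 0.0282). Of the 5 further GH3 genes tested, 2 were thus called higher in warm WT, while of the 6 tested GH3 genes described here 1 was called lower and none higher.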

How the data were processed

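RNA was sequenced in 12 libraries, 3 for each combination of genotype and temperature, taken from each library's own label, since the treatment text common to all samples gives 29 °C. Per the labels, total RNA from Trizol went into Illumina TruSeq libraries, a kit that does not mark strand. The submitters' processing notes name cutadapt 1.9, HISAT2 2.0.4, StringTie 1.3.4d, edgeR and the build TAIR10, and which of them made each value is not given in the sources used here. The deposited table holds whole-number counts per gene, with no normalization named, and these were tested as deposited. It also holds FPKM values made by the authors, used for levels between genes and in alternatives, in which a count of 0 is written as 0.0001. It holds 0 columns of other samples.

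Counts were fitted in R 4.3.3 with edgeR 4.0.16 (quasi-likelihood test, TMM scaling, filterByExpr with a minimum count of 10, 21870 genes tested, 1 mean per group over all 12 libraries). Benjamini-Hochberg adjustment ran over every gene tested, with calls under 0.05. The SE is the fold change divided by the root of F. The labels do not say that replicates were separate cultures, so p-values reflect only how far these libraries spread, which may be technical. Alternatives used DESeq2 1.42.0, limma 3.58.1 on log2 FPKM with pseudocounts of 1 and 0.1, no filter, a replicate block, the root score, the libraries of the contrast alone, counts divided by their spacing, and each library left out. Contrasts averaged over genotype or temperature, and the counts divided by their spacing, were added after the data were seen.

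The members and gene lists were chosen with earlier results of these data known. Every called member is named, IAA19, IAA29, GH3.3 and GH3.17 in each comparison, and up to 3 called genes of each other list. Other names were chosen after their values were seen. Sequences come from the RefSeq TAIR10.1 genome. All 36 loci were found there, with the same start and end as in the table for 2 of them. No member overlaps another gene of the table, and the share of its 50-base words found elsewhere in the genome was 0% but for IAA13 (0.405%), GH3.2 (1.14%) and GH3.4 (1.40%).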

Additional observations from a re-analysis of the deposited data

How the results depend on the processing

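With the root score as a covariate, the genes called higher and lower for warmth went to 0 in WT, in the libraries labelled rve5-2 and over both, and 1 was called higher by genotype at 29 °C (IAA14) and 1 over both temperatures (IAA14). That fit reversed IAA28 in the libraries labelled rve5-2 (0.25, adjusted p = 0.744) and, over both genotypes, IAA2 (0.15, adjusted p = 0.817), IAA17 (0.049, adjusted p = 0.904) and IAA28 (0.10, adjusted p = 0.901). The root score differs by temperature, so it shares the contrast with warmth. DESeq2 called 1 higher by genotype at 29 °C and 1 over both temperatures. With the WT libraries alone, warmth gave 1 higher and 2 lower, from fewer samples. Leaving out each library in turn gave 1 to 2 higher and 2 to 6 lower in WT, 1 to 3 higher and 3 to 6 lower in the libraries labelled rve5-2, 3 to 6 higher and 9 to 10 lower over both, and 0 to 1 higher by genotype over both temperatures. Leaving the root score aside, 2 of 6 calls held under all other alternatives in WT (IAA7 and IAA9), 4 of 8 in the libraries labelled rve5-2 (IAA7, IAA9, GH3.1 and GH3.17) and 11 of 16 over both, where IAA2, IAA3, IAA6, IAA8 and IAA30 did not. IAA6 was lost there without any 1 of the 3 WT libraries at 22 °C or without replicate 3 of either group labelled rve5-2.

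Same-numbered libraries did not deviate together throughout (correlations of -0.025 to 0.21, against -0.218 to 0.102 for other pairs). Between WT and labelled rve5-2 at 29 °C the correlations were 0.012 to 0.21 for the same number and -0.218 to 0.076 for other pairs. These ranges overlap, so they cannot decide whether the numbers pair the libraries. A replicate block gave 2 higher and 5 lower in WT, 3 and 6 in the libraries labelled rve5-2, 5 and 10 over both, and 0 by genotype.

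Over all genes, calls in WT warmth went from 3387 to 1687 with the WT libraries alone and to 1747 to 3621 without 1 library. In the libraries labelled rve5-2 they went from 5696 to 3590 to 5239 without 1 library. Genotype calls went from 42 to 143 (DESeq2) and 75 (own libraries) at 22 °C, from 102 to 345 and 38 at 29 °C and to 558 without WT replicate 1 at 29 °C, and from 150 to 432 (DESeq2) over both temperatures, to 571 without WT replicate 1 at 29 °C and to 96 without replicate 2 labelled rve5-2 at 22 °C. Interaction calls went from 0 to 43 with DESeq2. The causes were not tested. IAA33 and IAA34, both under 1 FPKM, had the largest SE in warm WT (1.34 and 1.23). Log2 fold changes larger than these SE, -1.74 for IAA33 and 1.27 for IAA34, did not pass the edgeR test there (adjusted p = 0.406 and 0.52).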
